A study of Mus musculus with 9 samples.

Results

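The genes described here were 33 that mark the cells of the brain vessel wall, taken from the 44886 genes counted in each library by matching the gene symbols of GENCODE M21 to Ensembl identifiers. Of these, 24 were counted as genes of endothelial cells and 9 as genes of mural cells, the pericytes and smooth muscle cells around them. Mcam, which mural cells also carry, was counted with the endothelial genes throughout. All 33 were found, all 33 had a count in every embryo, and all 33 were among the 16368 genes that passed the filter on low counts. The list holds known markers of these cells.

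The study examined whole striata dissected from mouse embryos at E17.5, late in gestation, with 3 embryos for each of 3 genotypes and 1 library per brain, to compare the programs that depend on the transcription factor Ebf1 in the developing striatum. Mutant embryos came from Ebf1+/- males carrying Islet1Cre/+ or Dlx5/6::Cre and Ebf1fl/fl females, so that each mutant carried 1 null and 1 conditional (floxed) Ebf1 allele. Islet1Cre recombines in direct pathway striatal projection neurons (dSPN) and cholinergic interneurons, and Dlx5/6::Cre in all striatal projection neurons and interneurons. The Control embryos were heterozygotes whose exact alleles are not given. The labels give C57BL/6 as the strain of every embryo, while the methods state that the Islet1Cre line was kept on another background, B6D2F1/J, and how this was spread over the embryos is not given in the sources used here. Neither Cre line is described as acting in vessel cells.

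Brain vessels are built from an inner sheet of endothelial cells, sealed by tight junctions and equipped with transporters that form the blood-brain barrier, and from mural cells that wrap the sheet from outside. Growth of this network depends on neural tissue: progenitors and neurons release VEGF and Wnt ligands, and endothelial cells release PDGF-B, which attracts pericytes through the receptor Pdgfrb. Ebf1 itself is known from pericytes as well as from neurons. In a whole striatum these cells are a minority, and in such bulk RNA a smaller number of vessel cells cannot be told apart from less RNA per cell.

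Libraries held 16.5 to 41.5 M counts on genes. The level of Ebf1, in CPM (counts scaled to the size of each library), ranged from 264 to 470 in Control, from 439 to 507 in Islet1Cre;Ebf1fl/- and from 392 to 506 in Dlx5/6::Cre;Ebf1fl/- embryos, so that Ebf1 counts do not check the genotypes. Control 3 and Islet1Cre;Ebf1fl/- 3 held both Xist and Y-linked counts, and whether they hold material of more than 1 embryo was not tested. Calls that changed without them are given below. Control 2 held a summed Y-linked level of 126 CPM, with Xist at 0.108 CPM. Control 1, Islet1Cre;Ebf1fl/- 1 and 2 and all Dlx5/6::Cre;Ebf1fl/- embryos held Xist, with Y-linked sums of at most 0.12 CPM. Sex was thus not balanced between the genotypes, and its part in any result was not tested. Dlx5/6::Cre;Ebf1fl/- 1 had the highest summed level of 6 cortical excitatory neuron genes, and that sum was 33.01 to 77.9 CPM in Control, 31.0 to 59.1 CPM in Islet1Cre;Ebf1fl/- and 78.6 to 183 CPM in Dlx5/6::Cre;Ebf1fl/- embryos. Cortical tissue in the dissection was not tested as a part of any result.

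The promoters of the member with the highest level per exon length (RPKM), Cldn5, and of the only member that lay on one side of Control in both mutants, Rgs5, are shown because the deleted factor is a DNA-binding protein. Each is the 250 bases before the start of the gene, from RefSeq on GRCm38.p6 and read on the strand of the gene, at chr16:18776597-18776846 on the plus strand for Cldn5 and at chr1:169655251-169655500 on the plus strand for Rgs5. Capitals mark the letters CCCNNGGG, the inner part of the palindrome TCCCNNGGGA that EBF proteins are known to bind; both read the same on either strand, and the longer holds the shorter.
Cldn5: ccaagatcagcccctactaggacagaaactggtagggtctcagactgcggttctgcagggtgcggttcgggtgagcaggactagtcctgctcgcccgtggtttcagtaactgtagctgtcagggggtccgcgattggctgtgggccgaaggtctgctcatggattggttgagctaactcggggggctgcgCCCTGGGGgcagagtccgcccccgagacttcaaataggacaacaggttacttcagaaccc
Rgs5: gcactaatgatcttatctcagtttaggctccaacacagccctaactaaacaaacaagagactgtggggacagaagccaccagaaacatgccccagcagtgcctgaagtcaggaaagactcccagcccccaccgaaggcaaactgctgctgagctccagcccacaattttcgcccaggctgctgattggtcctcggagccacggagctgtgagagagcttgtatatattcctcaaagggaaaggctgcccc
The Cldn5 window held 1 match and the Rgs5 window none. RefSeq windows were at hand for 24 of the 33 members, 30 windows in all. The full palindrome was in 0 of these 30 windows and in 0.779% of all 32851 promoter windows, and the inner letters were in 6 of 30 windows, those of Cldn5, Egfl7, Erg, Flt1, Mcam and Notch3, against 11.8% of all windows. The fixed letters of CCCNNGGG are all C or G. The median GC content was 59% in the windows of members and 52.4% in all windows. These matches describe letters only, and neither binding by Ebf1 nor a difference beyond GC content was tested. As stated above, neither Cre line is described as acting in vessel cells.

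No vessel gene passed the threshold in either mutant. Of the 33 genes, 0 had an adjusted p below 0.05 in Islet1Cre;Ebf1fl/- against Control, where 0.971% of all genes tested did, and 0 did so in Dlx5/6::Cre;Ebf1fl/- against Control, where 2.39% did (edgeR quasi-likelihood test, Benjamini-Hochberg adjustment over all genes). In the direct comparison of the mutants 0 of the 33 and 0% of all genes passed. At an unadjusted p below 0.05 edgeR gave 1, 4 and 1 members in these comparisons, against 7.93%, 15.5% and 5.16% of all genes, and DESeq2 gave 0, 1 and 0 members past the adjusted threshold.

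The estimates were close to 0 for most members. The median log2 fold change of the 33 genes was -0.07 in Islet1Cre;Ebf1fl/- and -0.07 in Dlx5/6::Cre;Ebf1fl/- embryos, next to medians of -0.0016 and 0.011 for all genes tested. These medians are smaller than the spread of the members' median level between embryos of a genotype, which had a pooled SD of 0.13 on the log2 scale. A positive estimate was found for 12 members in Islet1Cre;Ebf1fl/-, against 49.5% of all genes, and for 14 in Dlx5/6::Cre;Ebf1fl/- embryos, against 52.3%. For 30 of the 33 genes in Islet1Cre;Ebf1fl/- and 27 in Dlx5/6::Cre;Ebf1fl/- embryos the 95% interval lay within a change of 2-fold in either direction, against 78.5% and 75.3% of all genes tested. Both comparisons share the same 3 Control embryos.

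**Figure D1:**
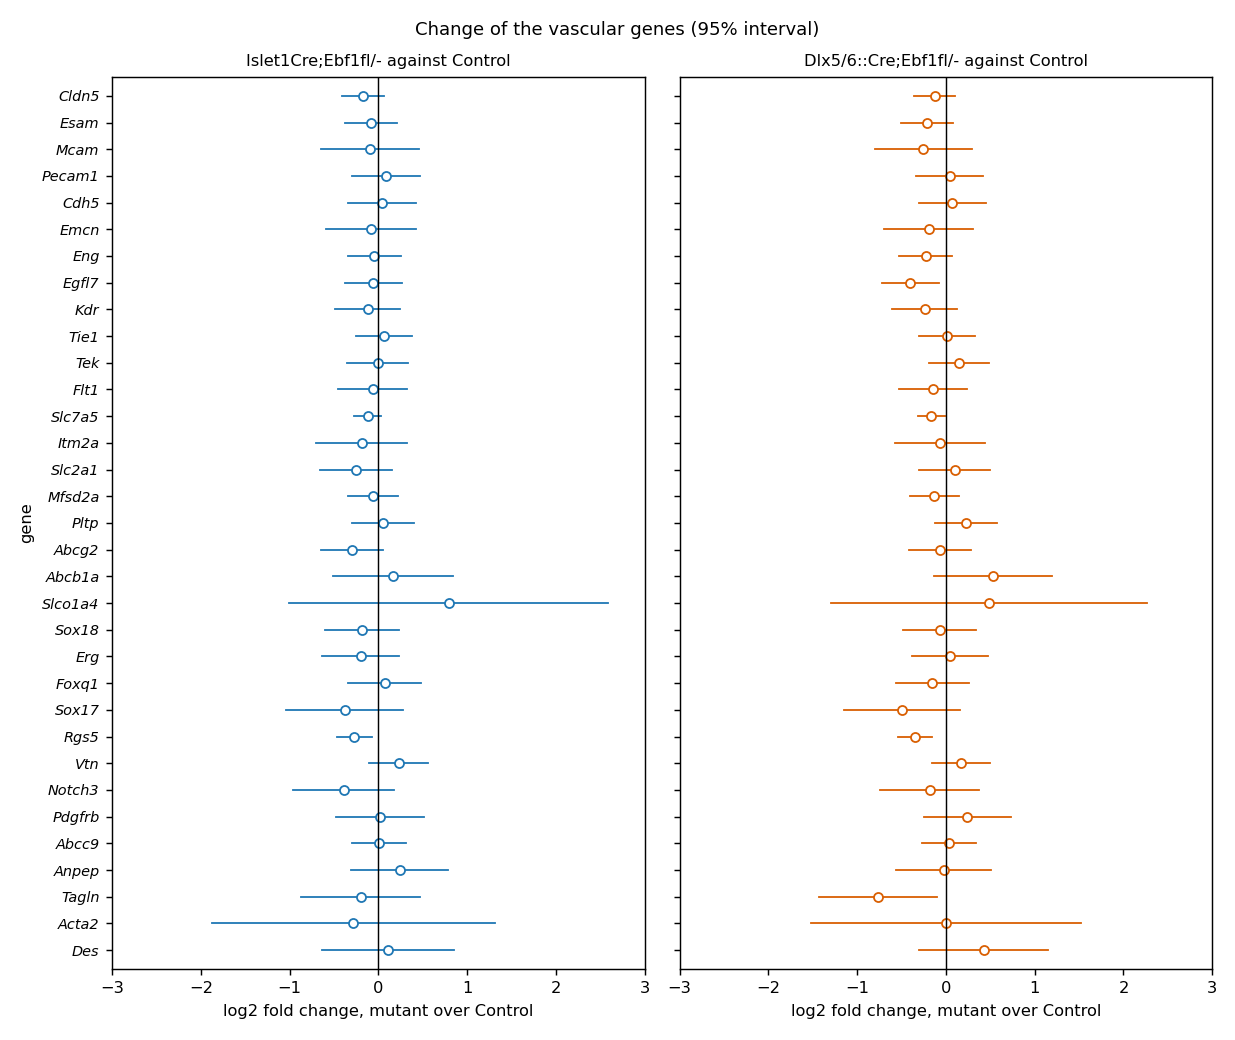
Log2 fold change of each of the 33 vessel genes (points) with its 95% interval (lines), for Islet1Cre;Ebf1fl/- against Control on the left and Dlx5/6::Cre;Ebf1fl/- against Control on the right, ordered by role and by level. All points are open because no gene passed an adjusted p of 0.05, and the intervals of Slco1a4 and Acta2 are the widest.

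Levels per length spanned a wide range. In Control embryos the mean was 0.0385 RPKM (CPM per kilobase of exon) for Slco1a4 and 34.7 RPKM for Cldn5, with a median of 2.93 RPKM over the members and 4.89 RPKM over all genes tested. Only 11 of the 33 members lay above that second median. The 5 highest were Cldn5 at 34.7 ± 4.58 RPKM, Slc7a5 at 27.9 ± 1.62 RPKM, Itm2a at 18.5 ± 2.73 RPKM, Slc2a1 at 17.8 ± 4.15 RPKM and Rgs5 at 14.8 ± 1.81 RPKM (SD, n = 3). Slc2a1 did not differ beyond its spread from its neighbours in this order, Itm2a and Rgs5.

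**Figure D2:**
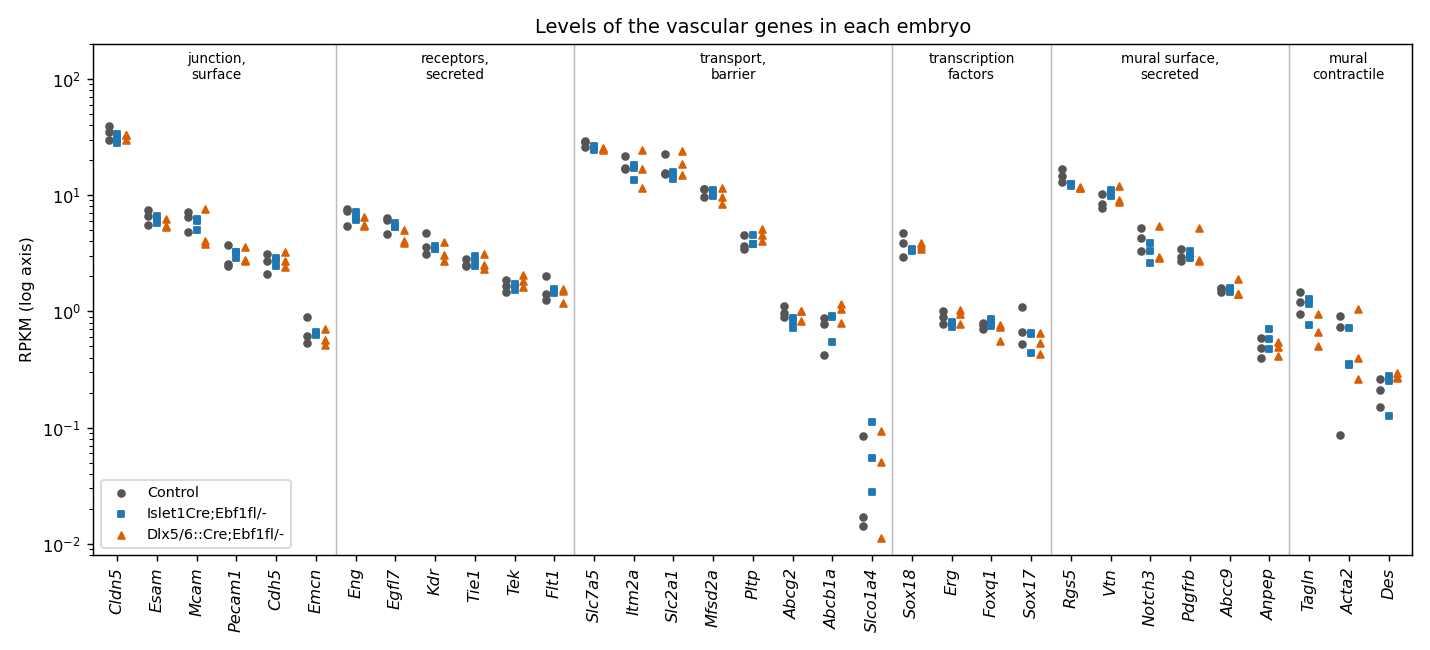
RPKM on a log axis for each of the 33 vessel genes in each of the 9 embryos, grouped by role, with circles for Control, squares for Islet1Cre;Ebf1fl/- and triangles for Dlx5/6::Cre;Ebf1fl/-. The symbols of the 3 genotypes overlap for nearly every gene, and Slco1a4 and Acta2 vary most between embryos.

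No junction or surface gene of the endothelium passed. Their median log2 fold change was -0.08 in Islet1Cre;Ebf1fl/- and -0.16 in Dlx5/6::Cre;Ebf1fl/- embryos, and 2 of the 6 estimates were positive in each. Cldn5 (ENSMUSG00000041378; chromosome 16, 18776847 to 18778262, GRCm38) encodes claudin-5, the main sealing protein of endothelial tight junctions. Its level was 55.3, 42.4 and 49.6 CPM in Control, 47.3, 40.1 and 43.2 CPM in Islet1Cre;Ebf1fl/- and 46.4, 46.4 and 42.0 CPM in Dlx5/6::Cre;Ebf1fl/- embryos. Control 1 was the highest embryo and the 3 groups overlapped. The log2 fold change was -0.17 ± 0.11 (SE) in Islet1Cre;Ebf1fl/- (adjusted p = 0.868) and -0.13 ± 0.11 in Dlx5/6::Cre;Ebf1fl/- embryos (adjusted p = 0.601).

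Esam, an adhesion molecule of endothelial junctions, was present at 18.8, 15.8 and 21.5 CPM in Control, 19.0, 16.6 and 17.4 CPM in Islet1Cre;Ebf1fl/- and 15.4, 17.9 and 15.1 CPM in Dlx5/6::Cre;Ebf1fl/- embryos. Its highest value was in Control 3 and its lowest in Dlx5/6::Cre;Ebf1fl/- 3, with overlap between all groups. The other 4 genes of this group were Pecam1 and Cdh5, which hold neighbouring endothelial cells together, Emcn, a mucin of their surface, and Mcam, an adhesion molecule that mural cells also carry. In Control they ranged from 0.682 RPKM for Emcn to 6.14 RPKM for Mcam, and their log2 fold changes lay between -0.25 for Mcam and 0.07 for Cdh5 in Dlx5/6::Cre;Ebf1fl/- embryos. Mcam was the most variable of them, with 25.6 CPM in Dlx5/6::Cre;Ebf1fl/- 1 and 13.5 and 12.8 CPM in the other embryos of that genotype.

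Receptors of endothelial growth signals did not pass either. Kdr and Flt1 bind VEGF, Tek is the angiopoietin receptor and Tie1 its partner, Eng is a co-receptor for ligands of the TGF-beta family, and Egfl7 is a protein secreted by endothelial cells. The median log2 fold change of these 6 genes was -0.05 in Islet1Cre;Ebf1fl/- and -0.19 in Dlx5/6::Cre;Ebf1fl/- embryos. Kdr was at 3.82 ± 0.835 RPKM and Flt1 at 1.56 ± 0.413 RPKM in Control (SD, n = 3). The Kdr estimate was -0.12 ± 0.17 in Islet1Cre;Ebf1fl/- and -0.24 ± 0.17 in Dlx5/6::Cre;Ebf1fl/- embryos, and both 95% intervals included 0.

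Eng was measured at 29.4, 22.1 and 30.7 CPM in Control, 24.8, 26.0 and 29.0 CPM in Islet1Cre;Ebf1fl/- and 22.4, 26.0 and 21.8 CPM in Dlx5/6::Cre;Ebf1fl/- embryos. The values of the mutants lay inside or just below the range of Control. Egfl7 (ENSMUSG00000026921; chromosome 2, 26580014 to 26593120) had 22.7, 16.6 and 21.8 CPM in Control, 19.2, 18.9 and 20.7 CPM in Islet1Cre;Ebf1fl/- and 18.0, 14.4 and 13.9 CPM in Dlx5/6::Cre;Ebf1fl/- embryos. All 3 Dlx5/6::Cre;Ebf1fl/- values were below all 3 of Islet1Cre;Ebf1fl/-, and 1 of them overlapped Control. Its log2 fold change was -0.40 ± 0.14 against Control (adjusted p = 0.209) and -0.34 ± 0.14 against Islet1Cre;Ebf1fl/- (adjusted p = 0.868), and neither passed. Of the exon sequence of Egfl7, 11.2% overlaps other annotated genes, among them the miRNA genes it hosts.

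Transporters and barrier genes included the scarcest member and several of the most abundant, and none passed. Their median log2 fold change was -0.09 in Islet1Cre;Ebf1fl/- and 0.02 in Dlx5/6::Cre;Ebf1fl/- embryos. Slc7a5 encodes a subunit of a carrier of large neutral amino acids. It had 96.6, 105 and 108 CPM in Control, 94.9, 91.0 and 99.1 CPM in Islet1Cre;Ebf1fl/- and 90.3, 93.8 and 92.5 CPM in Dlx5/6::Cre;Ebf1fl/- embryos. Every Dlx5/6::Cre;Ebf1fl/- value was below every Control value, and the log2 fold change was -0.16 ± 0.07 (adjusted p = 0.287). It was the least variable member, with 1.20-fold between its highest and lowest embryo. Slc7a5 is also expressed by neural cells.

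Slc2a1 encodes the glucose transporter GLUT1 and was at 54.8, 52.9 and 79.0 CPM in Control, 55.1, 48.7 and 53.1 CPM in Islet1Cre;Ebf1fl/- and 83.7, 64.5 and 52.0 CPM in Dlx5/6::Cre;Ebf1fl/- embryos. Control 3 and Dlx5/6::Cre;Ebf1fl/- 1 stood above the other embryos, and the groups overlapped. Itm2a, a membrane protein enriched in brain endothelium, was at 29.8, 37.8 and 29.3 CPM in Control, 31.8, 29.6 and 23.4 CPM in Islet1Cre;Ebf1fl/- and 20.1, 42.9 and 29.2 CPM in Dlx5/6::Cre;Ebf1fl/- embryos. Here the lowest and the highest of all 9 embryos both belonged to Dlx5/6::Cre;Ebf1fl/-.

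The efflux pump P-glycoprotein is encoded by Abcb1a, which had 2.29, 4.27 and 4.85 CPM in Control, 5.03, 3.00 and 4.88 CPM in Islet1Cre;Ebf1fl/- and 4.31, 6.34 and 5.77 CPM in Dlx5/6::Cre;Ebf1fl/- embryos. Its estimate in Dlx5/6::Cre;Ebf1fl/- embryos was 0.53 ± 0.30 (adjusted p = 0.423), and the 2 higher mutants exceeded all Control embryos while the other did not. Of the 75-base windows in its exons, 17.1% also occur in other genes. Whether reads were lost there was not measured. Slco1a4, an organic anion carrier of the mature barrier, was scarce, at 0.0903, 0.108 and 0.542 CPM in Control, 0.718, 0.352 and 0.178 CPM in Islet1Cre;Ebf1fl/- and 0.0718, 0.604 and 0.324 CPM in Dlx5/6::Cre;Ebf1fl/- embryos. These values rest on 2 to 20 reads per library, and the 95% interval of its log2 fold change ran from -1.01 to 2.59 in Islet1Cre;Ebf1fl/- and from -1.29 to 2.27 in Dlx5/6::Cre;Ebf1fl/- embryos. Among the other 3 genes of this group, the lipid carrier Mfsd2a was at 10.8 ± 0.959 RPKM in Control, the phospholipid transfer protein gene Pltp at 3.89 ± 0.605 RPKM and the efflux pump gene Abcg2 at 0.991 ± 0.108 RPKM (SD, n = 3). Abcg2, which was singled out after its values were seen, was below Control in all 3 Islet1Cre;Ebf1fl/- embryos (log2 fold change -0.30 ± 0.16, adjusted p = 0.765).

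Transcription factors of the endothelium were expressed at low levels per length. Sox17 and Sox18 are SoxF factors of vascular development, Erg is an ETS factor that maintains endothelial identity, and Foxq1 is a forkhead factor of brain endothelium. Sox17 had 5.17, 2.49 and 3.19 CPM in Control, 3.05, 3.12 and 2.08 CPM in Islet1Cre;Ebf1fl/- and 2.05, 3.08 and 2.53 CPM in Dlx5/6::Cre;Ebf1fl/- embryos. Control 1 and Control 3 exceeded all mutants and Control 2 lay among them, and the log2 fold changes of -0.38 ± 0.30 and -0.50 ± 0.30 were both short of the threshold (adjusted p = 0.949 and 0.446). Sox18 was at 7.64, 6.27 and 4.75 CPM in Control, 5.39, 5.61 and 5.41 CPM in Islet1Cre;Ebf1fl/- and 6.32, 5.95 and 5.55 CPM in Dlx5/6::Cre;Ebf1fl/- embryos.

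Control embryos of Sox18 included both its highest and its lowest value. Erg was at 3.10, 2.70 and 3.51 CPM in Control, 2.78, 2.75 and 2.56 CPM in Islet1Cre;Ebf1fl/- and 3.59, 2.72 and 3.32 CPM in Dlx5/6::Cre;Ebf1fl/- embryos, with overlap throughout. Foxq1 was at 0.759 ± 0.0451 RPKM in Control, but 65.5% of its 75-base windows also occur in other genes and 66.1% of its exon sequence overlaps A530084C06Rik, so its counts are uncertain.

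Rgs5 was the only member whose mutant embryos all lay below all Control embryos in both comparisons. Rgs5 (ENSMUSG00000026678; chromosome 1, 169655501 to 169695813) encodes a regulator of G-protein signalling that is enriched in pericytes. Its level was 66.4, 59.5 and 75.9 CPM in Control, 56.7, 54.2 and 56.3 CPM in Islet1Cre;Ebf1fl/- and 52.4, 53.3 and 52.9 CPM in Dlx5/6::Cre;Ebf1fl/- embryos. The 3 groups did not overlap, and the mutant embryos of each genotype were close to each other. The log2 fold change was -0.27 ± 0.09 in Islet1Cre;Ebf1fl/- (95% interval -0.47 to -0.08, adjusted p = 0.301) and -0.35 ± 0.09 in Dlx5/6::Cre;Ebf1fl/- embryos (95% interval -0.54 to -0.15, adjusted p = 0.0763), changes of -17.2% and -21.4%.

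Neither passed with edgeR, and the adjusted p of the second was 0.0215 with DESeq2. Control 3, the highest embryo, weighed on the estimate: without it the log2 fold changes were -0.17 (adjusted p = 0.827) and -0.25 (adjusted p = 0.237), and without Control 2 the second was -0.43 (adjusted p = 0.0417). Among embryos whose codes in the labels begin with IE, 3 mutants and 2 controls, the value for Islet1Cre;Ebf1fl/- was -0.17 (adjusted p = 0.733). All 3 Dlx5/6::Cre;Ebf1fl/- embryos carry the other code letter, D, with Control 3 as their only control, and the log2 ratio of their mean to that embryo was -0.52, with no test. Over all genes tested, 4.1% had every mutant of both genotypes below every Control embryo and 3.68% had every mutant above.

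In each comparison alone, few members were separated. In Islet1Cre;Ebf1fl/- the groups did not overlap for 2 members, Abcg2 and Rgs5, both lower, where 15.2% of all genes did not overlap and 7.45% were lower. In Dlx5/6::Cre;Ebf1fl/- embryos this held for 3 members, Slc7a5 and Rgs5, both lower, and Des, which was higher, where 21% of all genes did not overlap, 11.2% being lower and 9.71% higher. Between the mutants it held for Egfl7 and Rgs5, both lower in Dlx5/6::Cre;Ebf1fl/-, against 10.4% of all genes, 5.24% being lower.

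**Figure D3:**
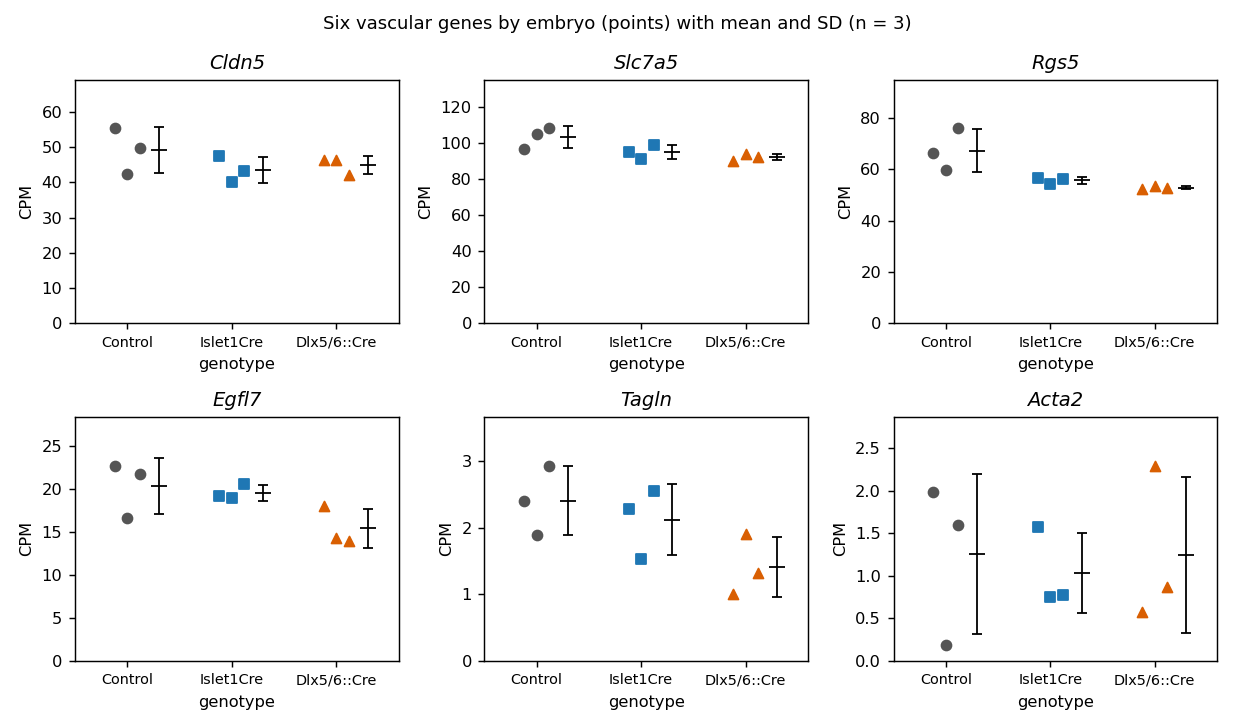
CPM of 6 vessel genes by genotype, with 1 point per embryo and the mean with its SD (n = 3) beside the points, on axes that start at 0. Rgs5 shows 3 groups without overlap, Egfl7 and Tagln are low in Dlx5/6::Cre;Ebf1fl/-, and the Acta2 embryos of each genotype are widely spread.

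The other surface and secreted genes of mural cells had estimates in both directions and did not pass. The receptor Pdgfrb, which pericytes need for recruitment, was at 3.01 ± 0.369 RPKM in Control (SD, n = 3), with log2 fold changes of 0.02 ± 0.22 in Islet1Cre;Ebf1fl/- and 0.24 ± 0.22 in Dlx5/6::Cre;Ebf1fl/- embryos. The second rested on Dlx5/6::Cre;Ebf1fl/- 1, at 28.5 CPM, while the other embryos of that genotype had 14.9 and 15.2 CPM. Vtn, the matrix protein vitronectin made by pericytes in brain, was at 17.1, 15.8 and 20.7 CPM in Control, 22.4, 20.4 and 19.9 CPM in Islet1Cre;Ebf1fl/- and 24.5, 18.5 and 17.55 CPM in Dlx5/6::Cre;Ebf1fl/- embryos. Its estimates of 0.23 ± 0.15 and 0.17 ± 0.15 were opposite in sign to those of Rgs5, although both genes belong to pericytes.

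Notch3, a Notch receptor of mural cells, was at 42.0, 26.6 and 34.7 CPM in Control, 20.9, 26.6 and 31.2 CPM in Islet1Cre;Ebf1fl/- and 44.0, 23.1 and 23.9 CPM in Dlx5/6::Cre;Ebf1fl/- embryos. It varied 2.11-fold between embryos and its groups overlapped. Abcc9, a subunit of the potassium channel of pericytes, and Anpep, a surface peptidase, were at 1.54 ± 0.0547 and 0.493 ± 0.0972 RPKM in Control. Their log2 fold changes lay between -0.03 and 0.24 in the mutants.

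Contractile genes of smooth muscle were at low levels and imprecise. Acta2, smooth muscle actin, had 1.99, 0.189 and 1.59 CPM in Control, 1.57, 0.751 and 0.774 CPM in Islet1Cre;Ebf1fl/- and 0.574, 2.30 and 0.863 CPM in Dlx5/6::Cre;Ebf1fl/- embryos. It differed 12.1-fold between its extreme embryos, the largest ratio of all members, and its interval in Islet1Cre;Ebf1fl/- ran from -1.88 to 1.31 on the log2 scale. Tagln, the actin-binding protein transgelin, had 2.41, 1.89 and 2.93 CPM in Control, 2.29, 1.53 and 2.56 CPM in Islet1Cre;Ebf1fl/- and 1.00, 1.90 and 1.32 CPM in Dlx5/6::Cre;Ebf1fl/- embryos.

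For Tagln, 2 Dlx5/6::Cre;Ebf1fl/- embryos were below every Control embryo and the third just reached the lowest of them. Its log2 fold change of -0.77 ± 0.30 there (adjusted p = 0.254) was the largest of any member in that comparison. Of its 75-base windows 53.3% also occur in other genes, so its counts are uncertain. Des, the muscle filament desmin, was the third gene of this group, at 0.208 ± 0.0561 RPKM in Control. It was named after its values were seen, because its Dlx5/6::Cre;Ebf1fl/- embryos, at 1.11, 0.997 and 1.02 CPM, lay above Control at 0.782, 0.568 and 0.989 CPM (log2 fold change 0.42 ± 0.33, adjusted p = 0.566).

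The median level of the vessel genes differed more between embryos of one genotype than between the genotype means. Relative to the mean of the 9 embryos, the median deviation of the 33 genes was 0.05, -0.13 and 0.21 in Control, 0.05, -0.06 and 0.03 in Islet1Cre;Ebf1fl/- and 0.09, 0.02 and -0.15 in Dlx5/6::Cre;Ebf1fl/- embryos, on the log2 CPM scale. In Control 3, 28 of 33 members were above their mean, whereas in Control 2 only 7 were and in Dlx5/6::Cre;Ebf1fl/- 3 only 5. Endothelial and mural genes deviated the same way in each of these 3 embryos. In Dlx5/6::Cre;Ebf1fl/- 1 the mural median was 0.29 and the endothelial median 0.06. That library also had the highest sum of the cortical excitatory neuron genes, at 183 CPM. Whether a different make-up of its tissue had a part in these medians was not tested.

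**Figure D4:**
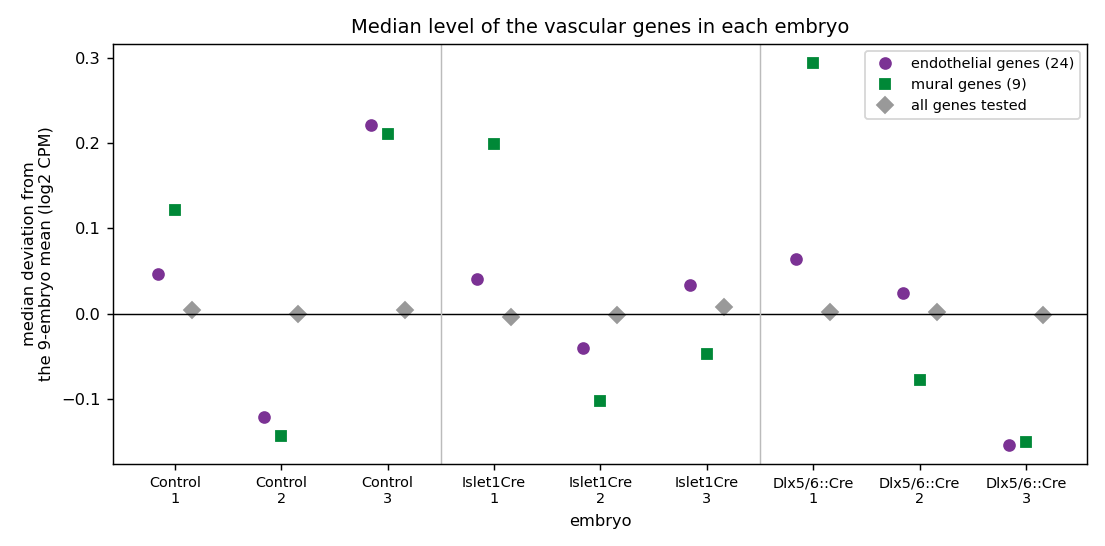
Median deviation from the 9-embryo mean, in log2 CPM, of the 24 endothelial genes (circles), the 9 mural genes (squares) and all genes tested (diamonds) in each embryo. Control 3 is the highest embryo for endothelial genes and Dlx5/6::Cre;Ebf1fl/- 3 the lowest, and all genes tested stay at 0.

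The within-genotype SD of log2 CPM had a median of 0.221 over the members, 0.206 over genes with levels between the quartiles of the members, and 0.181 over all genes tested. From the lowest to the highest embryo the members differed by a median of 1.61-fold, and 25 of 33 by less than 2-fold. The highest embryo was Dlx5/6::Cre;Ebf1fl/- 1 for 12 members and Control 3 for 10. The ratio of summed mural to summed endothelial CPM was 0.307 ± 0.0221 in Control, 0.296 ± 0.00984 in Islet1Cre;Ebf1fl/- and 0.299 ± 0.0349 in Dlx5/6::Cre;Ebf1fl/- embryos (SD, n = 3), differences well within the spread.

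Within embryo codes the 2 mutants gave unlike medians. Against Control 3, the only control with code D, the 3 Dlx5/6::Cre;Ebf1fl/- embryos had a median log2 ratio of -0.23 over the 33 genes. Against the other 2 Control embryos, the 3 Islet1Cre;Ebf1fl/- embryos had a median of 0.01. These ratios were not taken over all genes. Control 3, its code letter and the mutant genotype set against it cannot be told apart here. What the code letters stand for is not given in the sources used here. Without Control 3 and Islet1Cre;Ebf1fl/- 3, the median log2 fold change of the members was 0.02 in both mutants and 0 members passed.

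Ligands and partners of these receptors, a group set down with earlier results of these data known, were the vascular group in which genes passed. Of 24 such genes, 1 rose and 1 fell in Islet1Cre;Ebf1fl/-, and 2 rose and 1 fell in Dlx5/6::Cre;Ebf1fl/- embryos, where 0.971% and 2.39% of all genes tested passed. The gene that rose in both was Nrp1, a co-receptor of VEGF that also receives semaphorins in neurons, at 18.0, 15.7 and 14.2 CPM in Control, 26.0, 34.7 and 22.2 CPM in Islet1Cre;Ebf1fl/- and 32.9, 27.7 and 32.2 CPM in Dlx5/6::Cre;Ebf1fl/- embryos. Every mutant embryo was above every Control embryo. Its log2 fold change was 0.80 ± 0.16 (adjusted p = 0.0486) and 0.95 ± 0.16 (adjusted p = 0.0130).

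Nrp2, a related co-receptor of VEGF-C and semaphorins, was at 5.81, 8.52 and 8.74 CPM in Control, 17.3, 30.1 and 12.1 CPM in Islet1Cre;Ebf1fl/- and 20.0, 25.9 and 27.2 CPM in Dlx5/6::Cre;Ebf1fl/- embryos. The groups of mutants were again above Control, and the gene passed in Dlx5/6::Cre;Ebf1fl/- embryos (log2 fold change 1.66 ± 0.29, adjusted p = 0.0167) but not in Islet1Cre;Ebf1fl/- (1.38 ± 0.29, adjusted p = 0.0639). The direct test between the mutants did not pass for either gene. Both are also expressed by neurons, so these counts are not specific to vessels.

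Tgfb2, a ligand of the TGF-beta family, was at 22.9, 15.0 and 18.8 CPM in Control, 6.55, 8.07 and 10.2 CPM in Islet1Cre;Ebf1fl/- and 5.10, 7.82 and 6.50 CPM in Dlx5/6::Cre;Ebf1fl/- embryos. Which cells of the striatum carried the counts of Tgfb2 was not resolved. All mutant embryos were below all Control embryos. It fell by 1.19 ± 0.22 on the log2 scale in Islet1Cre;Ebf1fl/- (adjusted p = 0.0352) and by 1.54 ± 0.22 in Dlx5/6::Cre;Ebf1fl/- embryos (adjusted p = 0.00536). The calls in Islet1Cre;Ebf1fl/- were near the threshold: Nrp1 lost it under 11 of 19 alternatives, with estimates from 0.60 to 0.93, and Tgfb2 under 8 of 19, with estimates from -1.36 to -1.03. Nrp2 passed there under 6 of 19. In Dlx5/6::Cre;Ebf1fl/- embryos Nrp1 lost it under 4 of 18, Nrp2 under 4 and Tgfb2 under 1.

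Single libraries carried several of these calls. In Islet1Cre;Ebf1fl/-, Nrp1 lost its call without any 1 of the Control embryos, Islet1Cre;Ebf1fl/- 1 or 2, or Dlx5/6::Cre;Ebf1fl/- 2 or 3, with adjusted p from 0.0592 to 0.208. Tgfb2 lost its call there without Control 1 or 3, Islet1Cre;Ebf1fl/- 1 or 2, or Dlx5/6::Cre;Ebf1fl/- 3, with adjusted p from 0.0580 to 0.188. In Dlx5/6::Cre;Ebf1fl/- embryos, Nrp1 lost its call without Control 3 (adjusted p = 0.0652) or Dlx5/6::Cre;Ebf1fl/- 3 (adjusted p = 0.0520), and Nrp2 without Control 1, Control 3 or Dlx5/6::Cre;Ebf1fl/- 3 (adjusted p = 0.0859, 0.0527 and 0.0592). Without both Control 3 and Islet1Cre;Ebf1fl/- 3, Nrp1 was at 0.86 in Islet1Cre;Ebf1fl/- (adjusted p = 0.133) and 0.88 in Dlx5/6::Cre;Ebf1fl/- embryos (adjusted p = 0.0578) on the log2 scale, and Tgfb2 at -1.36 in Islet1Cre;Ebf1fl/- (adjusted p = 0.140), so these 3 calls were lost. Nrp2 and Tgfb2 still passed without them in Dlx5/6::Cre;Ebf1fl/- embryos, at 1.76 and -1.55 (adjusted p = 0.0329 for each).

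Vegfa, Angpt1, Angpt2, Pdgfb, Dll4 and Jag1 did not pass in either mutant. Vegfa, the ligand of Kdr and Flt1, was at 85.4, 59.6 and 96.9 CPM in Control, 68.3, 87.1 and 80.9 CPM in Islet1Cre;Ebf1fl/- and 104, 75.1 and 64.6 CPM in Dlx5/6::Cre;Ebf1fl/- embryos, with log2 fold changes of -0.03 ± 0.20 and 0.01 ± 0.20. The Tek ligands Angpt1 and Angpt2 had estimates of -0.01 ± 0.17 and 0.14 ± 0.51 in Islet1Cre;Ebf1fl/- and of -0.03 ± 0.17 and -0.44 ± 0.51 in Dlx5/6::Cre;Ebf1fl/- embryos. Pdgfb, the ligand of Pdgfrb, had -0.22 ± 0.15 and -0.32 ± 0.15 (adjusted p = 0.901 and 0.336). The Notch ligands Dll4 and Jag1 had -0.34 ± 0.20 and -0.20 ± 0.24 in Islet1Cre;Ebf1fl/- and -0.46 ± 0.20 and -0.07 ± 0.24 in Dlx5/6::Cre;Ebf1fl/- embryos.

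**Figure D5:**
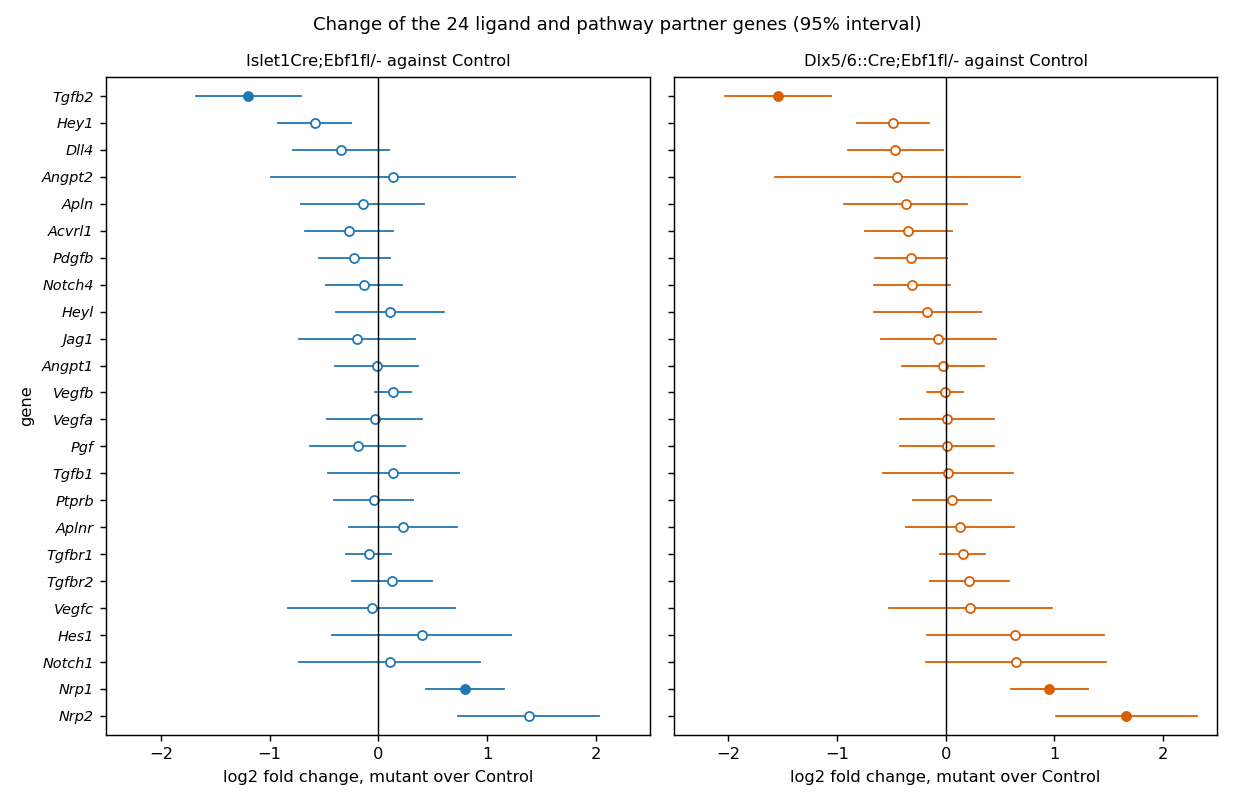
Log2 fold change of 24 genes for ligands, co-receptors and partners of the vessel receptors (points) with 95% intervals (lines), for Islet1Cre;Ebf1fl/- on the left and Dlx5/6::Cre;Ebf1fl/- on the right. Filled points mark genes that passed an adjusted p of 0.05, which are Nrp1 and Tgfb2 on both sides and Nrp2 on the right.

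Further genes linked to vessels, outside the 33, were counted in lists that are not all specific to vessel cells. Among them were Zic1, Wnt7a and Agrn, at a mean of 23.5, 62.1 and 577 CPM in Control. Which cells carried these counts was not resolved. Of 22 other endothelial genes 0 passed in either mutant, with median log2 fold changes of 0.06 and 0.01, and of 11 other mural genes tested 0 passed, with medians of -0.22 and -0.09. Of 12 genes that act in Wnt signalling and barrier induction 0 passed, with medians of 0.05 and 0.10, and of 12 basement membrane genes 0 passed, with medians of 0.05 and 0.06. At an unadjusted p below 0.05 edgeR gave 0, 0, 0 and 1 of these lists' genes in Islet1Cre;Ebf1fl/- and 1, 1, 3 and 0 in Dlx5/6::Cre;Ebf1fl/- embryos, in the same order, where 7.93% and 15.5% of all genes did so.

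Markers of other cells at or near vessels were summed in the same way. The 10 fibroblast genes summed to 48.3 to 51.0 CPM in Control, 43.2 to 46.3 CPM in Islet1Cre;Ebf1fl/- and 50.7 to 66.9 CPM in Dlx5/6::Cre;Ebf1fl/- embryos. The 10 red blood cell genes summed to 303 to 569, 268 to 399 and 299 to 369 CPM, and the 8 microglia and macrophage genes to 230 to 319, 196 to 305 and 260 to 318 CPM in the same order. Of the fibroblast sums in Control, Pdgfra alone held 39.3, 44.4 and 38.8 CPM, so these sums mostly follow that gene. Which cells carried the counts of Pdgfra was not resolved, so the sums give no level of fibroblasts. Control 2 had the highest sum of the Control embryos, while its median log2 deviation over the 7 fibroblast genes tested was -0.73. No gene of these 3 lists passed in either mutant, and their part in the values of the vessel genes was not tested.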

How the data were processed

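The authors deposited raw counts, 1 table per embryo with the number of reads assigned to each Ensembl gene and no scaling. Per the methods, striatal RNA from 400 ng was selected for poly(A), prepared with a strand-specific kit and read over 75 bases, filtered and mapped with STAR 2.4.0k in the Eoulsan pipeline, reads that matched more than 1 position were removed, and HTSeq-count 0.5.3 counted the rest on Ensembl 81 genes (build mm10 per the submitters' processing notes). The strand setting of the counting is not given in the sources used here. Removing multiply matching reads lowers counts of genes that share sequence, so the share of 75-base exon windows found in other genes was computed for each member.

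Groups and replicate numbers came from the sample titles. Gene symbols and positions came from GENCODE M21 (GRCm38), which held 44048 of the 44886 identifiers. edgeR 4.0.16 in R 4.3.3 was fitted to all 9 libraries with genotype as the only term, after filterByExpr (minimum count 10) and TMM scaling, with the quasi-likelihood test and Benjamini-Hochberg adjustment over all 16368 genes tested. A gene passed at an adjusted p below 0.05. CPM used TMM-scaled library sizes, RPKM divided CPM by exon length in kilobases, and per-embryo deviations used log2 after adding 0.5 counts. The fit was checked on simulated counts with known changes.

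The members and gene lists were chosen with earlier results of these data known. Values in every embryo were given for members past the threshold, the 3 largest changes per comparison, members separated from Control in both mutants, and the 2 highest members per length of each of 6 role groups. For pathway genes they were given for those past the threshold, and for the ligands of member receptors the estimates were. Alternatives were DESeq2 1.42.0, its size factors in edgeR, no or a stricter filter (1 CPM in 3 libraries), only the 6 embryos compared, the embryo code as a covariate or only IE embryos, a replicate block, and each embryo left out in turn. Leaving out the 2 libraries with both Xist and Y-linked counts, and these plus Dlx5/6::Cre;Ebf1fl/- 1, were added after seeing the data. Exact permutation of 3 against 3 embryos cannot pass the threshold, so edgeR's sharing of the spread across genes was relied on. Libraries held 16.5 to 41.5 M counts, which left genes under about 1 CPM imprecise. Protein sequences were not used here.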

Additional observations from a re-analysis of the deposited data

How the results depend on the processing

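The count of members past the threshold was 0 under all 19 alternatives in Islet1Cre;Ebf1fl/- and all 18 in the comparison of the mutants. In Dlx5/6::Cre;Ebf1fl/- it was 0 under 16 of 18 and 1, Rgs5, with DESeq2; leaving out 1 embryo gave 0 to 1, with Rgs5 past the threshold without Control 2. The median log2 fold change of the members moved by more than the spread between embryos only with the embryo code as a covariate, to -0.23 in Dlx5/6::Cre;Ebf1fl/- against Control and -0.23 against Islet1Cre;Ebf1fl/-, where Control 3 is the only control of its code. Leaving out 1 embryo gave medians of -0.16 to 0.02 in Islet1Cre;Ebf1fl/-, -0.12 to 0.02 in Dlx5/6::Cre;Ebf1fl/- and -0.08 to 0.03 between the mutants. Replicate numbers did not pair the embryos: deviations of same-numbered embryos correlated with a mean r of -0.0235 (-0.228 to 0.178), and those of differently numbered ones with 0.0123. With the replicate block 0 members passed in each comparison and the medians were -0.06, -0.06 and -0.05; the block changed no member's call, while in Islet1Cre;Ebf1fl/- the adjusted p of Nrp1, Tgfb2 and Nrp2 became 0.0744, 0.0600 and 0.0489. Of 1809 results of single members under alternatives, 2 passed, both of Rgs5, 144 had another sign than reported, and 2 adjusted p values of DESeq2 were missing. Without the 2 libraries with both Xist and Y-linked counts the medians against Control were 0.02 and 0.02, and without Dlx5/6::Cre;Ebf1fl/- 1 as well 0.02 and -0.07, with 0 members past the threshold. The stricter filter left 31 members. Depth limited Slco1a4, Acta2 and Des most, whose counts were lowest.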

Other observations

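Of 80 genes tested in the pathway lists, 2 had every mutant embryo of both genotypes below every Control embryo, Hey1 and Tgfb2, and 5 had every mutant above, Nrp1, Nrp2, Ndp, Tspan12 and Foxd1, next to 4.1% and 3.68% of all genes tested. Hey1, Ndp, Tspan12 and Foxd1 passed in neither mutant, and Hey1 and Ndp are given here after their values were seen. Hey1, a transcription factor downstream of Notch receptors, was at 21.5, 21.3 and 20.5 CPM in Control, 15.1, 12.9 and 14.2 CPM in Islet1Cre;Ebf1fl/- and 18.8, 14.1 and 12.3 CPM in Dlx5/6::Cre;Ebf1fl/- embryos. Every mutant embryo was below every Control embryo, and the log2 fold changes were -0.59 ± 0.15 (adjusted p = 0.136) and -0.49 ± 0.15 (adjusted p = 0.140). Ndp, the ligand norrin, which signals through Fzd4 in endothelial cells, was at 1.93, 1.81 and 1.66 CPM in Control, 2.47, 2.16 and 2.796 CPM in Islet1Cre;Ebf1fl/- and 3.09, 4.32 and 2.88 CPM in Dlx5/6::Cre;Ebf1fl/- embryos. All mutants were above Control, with log2 fold changes of 0.45 ± 0.23 (adjusted p = 0.725) and 0.93 ± 0.22 (adjusted p = 0.0609).

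Among markers of other tissues, Clic6 of the choroid plexus list fell by 1.33 ± 0.29 on the log2 scale in Dlx5/6::Cre;Ebf1fl/- embryos (adjusted p = 0.0370), from 6.35, 7.71 and 4.59 CPM in Control to 1.94, 2.99 and 2.45 CPM. It was the only one of the 4 genes of that list that were tested to pass in either mutant. In Dlx5/6::Cre;Ebf1fl/- embryos 2 of these 4 estimates were positive and 2 negative. Their median log2 fold change was 0.08 and the highest was 1.47.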
